A study of Mus musculus with 10 samples.

Results

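The transcriptomes of liver ILC1 and splenic NK cells were compared in 3 libraries of each cell type from BALB/C mice that had received vehicle alone by oral gavage for 1 week. These are 6 of the 10 RNA-seq libraries of the series, and they were chosen by their labels for cell type and treatment, not by any measured value. Liver ILC1 had been sorted as CD3- NKp46+ cells that were dim for DX5 and positive for TRAIL, and splenic NK cells as CD3- NKp46+ cells without a DX5 or TRAIL gate. The other 4 libraries came from mice given tofacitinib, an inhibitor of Janus kinases, and were used here only to see whether directions were kept. Cells of several mice were pooled per sort according to the methods, so a library stands for a pool. The sample sheet of the ILC1 table gives each of the 3 ILC1 libraries a sequencing run of its own, and that of the NK table gives no run. Neither says whether the libraries of a group came from separate sorts, and p-values therefore measure the spread between these libraries. Cell type, organ, sort gate, sequencing run and deposited table cannot be told apart in this design.

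Group 1 innate lymphoid cells are lymphocytes without rearranged antigen receptors that make interferon-gamma and share the surface receptor NKp46. Conventional NK cells circulate through blood and spleen, depend on the T-box factors Eomes and T-bet, and kill target cells with perforin and granzymes. ILC1 of the liver are tissue-resident, express T-bet with little Eomes, and are known for CD49a, CD200R1, CXCR6 and the death ligand TRAIL.

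Sequencing depth ranged from 29199973 to 62930367 alignments per library, with NK replicate 3 the shallowest. Values are RPKM, reads scaled to exon length and to the mapped reads of the library, after each library had been scaled to a common median (median-scaled RPKM). Over the tested genes, the Pearson correlation of log2 values was 0.954 to 0.978 between ILC1 libraries, 0.988 to 0.991 between NK libraries and 0.829 to 0.855 across cell types. ILC1 replicate 2 stood apart, with 1824 genes at 0 against 4215 and 5717 in the other ILC1 libraries and 7577 to 8905 in the NK libraries. Its median over the scaling genes was 8.17 RPKM, against 12.9 to 14.4 in the other 5 libraries, and its values were multiplied by 1.55. A tofacitinib ILC1 library of the same run held 1538 genes at 0, and that of the run of ILC1 replicate 3 held 5102.

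The genes of the sort gates were read first, as a check of the labels and not as a result. Ncr1, which encodes NKp46, was at 877, 882 and 966 median-scaled RPKM in the ILC1 libraries and at 911, 888 and 869 in the NK libraries. Tnfsf10, which encodes TRAIL, was at 77.0, 80.3 and 74.8 in ILC1 and at 4.43, 3.92 and 4.49 in NK cells. Itga2, which encodes the integrin recognized by DX5, was at 6.76, 6.28 and 8.25 in ILC1 and at 53.0, 49.9 and 58.1 in NK cells. Tnfsf10 was thus high and Itga2 low in the cells sorted as TRAIL+ and DX5dim, and Ncr1 overlapped between the groups. Cd3e RNA, whose protein both gates excluded, was at 2.096, 5.33 and 3.26 in ILC1 and at 0.0473, 0.391 and 0.132 in NK cells.

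Of 9715 genes with enough RNA in at least 1 cell type, 654 (6.73%) were called higher in ILC1 and 540 (5.56%) lower, at a Benjamini-Hochberg adjusted p under 0.05 by limma and a fold of 2 or more. These shares of all tested genes are the background for each list count below. The median log2 difference over all tested genes was -0.002, a value that the scaling to a common median sets near 0. Without the scaling this median was -0.281, and higher genes made up 37.9% of the calls in place of 54.8%. In that unscaled fit limma gave every gene the variance of the trend alone (infinite prior degrees of freedom), so its calls do not take up the spread of single genes, here and for the lists that follow. Changes of 8-fold or more were found for 122 of the higher and 132 of the lower genes. A gene needed enough RNA in only 1 cell type to be tested. The NK mean was under 1 median-scaled RPKM for 176 of the higher genes. The ILC1 mean was under 1 for 154 of the lower genes. In bulk RNA, fewer cells that express a gene and less RNA of it per cell cannot be told apart. At any fold, 2093 genes (21.5%) passed the adjusted p upward and 2038 (21.0%) downward, and 2937 of these differed by under 2-fold. All 3 ILC1 libraries lay above all 3 NK libraries for 2650 genes (27.3%) and below them for 2679 (27.6%), so separation of the groups alone was common. Each ILC1 library on its own lay at least 1 log2 unit from the NK mean for 514 of the 654 higher and 436 of the 540 lower genes.

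**Figure D1:**
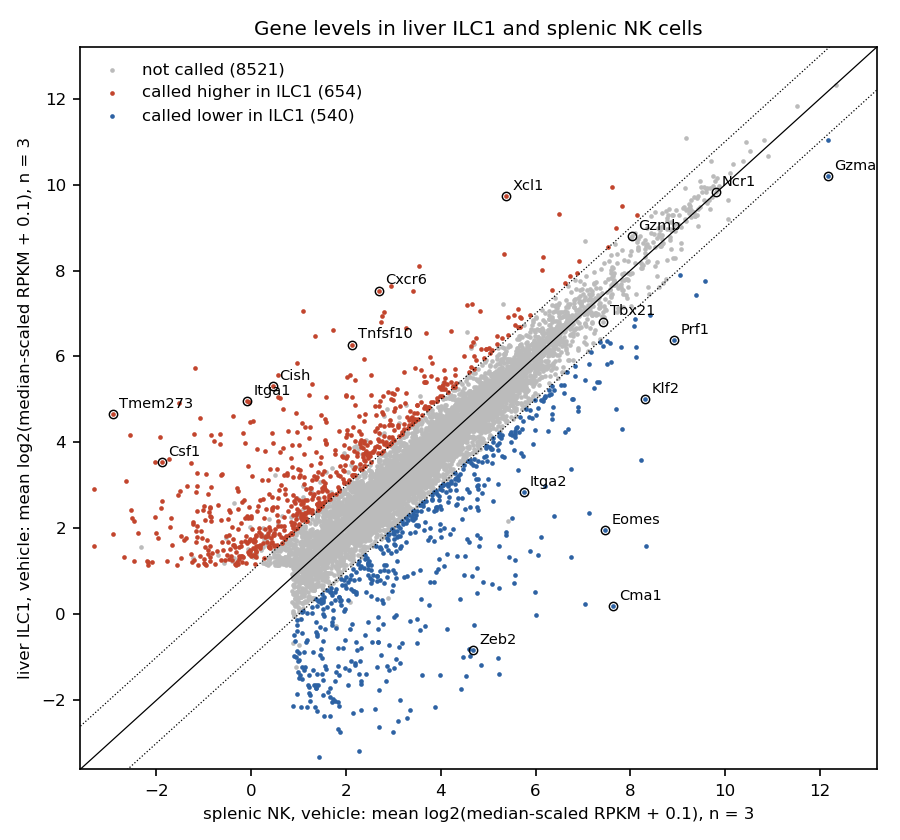
Mean log2(median-scaled RPKM + 0.1) of each of the 9715 tested genes in the 3 splenic NK libraries (x axis) and the 3 liver ILC1 libraries (y axis). The solid line marks equal levels and the dotted lines a 2-fold difference; 654 genes were called higher in ILC1 and 540 lower. Xcl1, Cxcr6 and Itga1 lie far above the line, Eomes and Cma1 far below it, and Ncr1 on it.

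The genes that define tissue-resident ILC1 were higher in the liver cells, and those of circulating NK cells were lower. Of the 15 tested ILC1 markers 13 were called higher and none lower, with a median log2 difference of 2.88, against 6.73% and -0.002 over all tested genes. Of the 16 circulating NK markers 15 were called lower and none higher, with a median of -4.00, against 5.56% over all genes. Both counts were the same in limma fits without ILC1 replicate 2 and without NK replicate 3. The markers were listed with earlier results of these data known. Their direction could thus be foreseen and is given as description, not as a test of the cell type labels.

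Itga1 (chr13:114958079-115101964, GRCm38), which encodes the CD49a chain of a collagen-binding integrin, was at 28.8, 30.2 and 34.3 median-scaled RPKM in the 3 ILC1 libraries and at 0.967, 0.676 and 0.929 in the 3 NK libraries. The groups did not overlap, and the difference was 5.04 on the log2 scale (SE 0.15, limma adjusted p = 1.5e-07), a 32.8-fold higher level. Cd200r1, an inhibitory receptor for CD200, was higher by 5.0 (SE 0.12, limma adjusted p = 1.1e-07), with 44.7 to 49.5 in ILC1 and 1.14 to 1.54 in NK cells. Cxcr6 (chr9:123806477-123811754, GRCm38) encodes the receptor for CXCL16, a chemokine displayed in liver sinusoids. Its level was 165, 213 and 181 in ILC1 and 7.93, 5.90 and 5.45 in NK cells, a log2 difference of 4.84 (SE 0.15, limma adjusted p = 2.09e-07). Among the most abundant markers was Xcl1, a chemokine that attracts cross-presenting dendritic cells, at 827, 799 and 917 in ILC1 against 56.5, 33.6 and 37.5 in NK cells. Rgs1, which dampens chemokine receptor signaling, varied most among the ILC1 libraries of these genes, at 189, 277 and 404, and still lay far above the 9.44 to 13.9 of the NK libraries. Inpp4b, a phosphoinositide phosphatase, was higher by 4.48, Il2ra (CD25) by 3.50, Il21r by 2.88, Cd160 by 2.86 and Cd226, the activating receptor DNAM-1, by 2.24 on the log2 scale. Smaller differences were found for Cd69 (1.51), Thy1 (1.43) and Ltb (1.29), all past the call. Il7r, a receptor chain often used to recognize ILC, was not called at 0.55 (limma adjusted p = 0.00126), with 26.1 to 27.7 in ILC1 and 17.1 to 20.0 in NK cells. Kit, the receptor for stem cell factor, overlapped between the groups at 0.44 (limma adjusted p = 0.0761).

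Eomes (chr9:118478186-118486132, GRCm38), the T-box factor of conventional NK cells, was at 2.69, 4.67 and 4.36 median-scaled RPKM in ILC1 and at 165, 190 and 177 in NK cells. It fell by 5.50 on the log2 scale (SE 0.19, limma adjusted p = 2.4e-07), a 45.4-fold lower level, though RNA was present in all 3 ILC1 libraries. S1pr5, the sphingosine-1-phosphate receptor through which NK cells leave tissues, was at 1.59, 2.54 and 3.44 in ILC1 and 108, 99.2 and 117 in NK cells, a difference of -5.42 (SE 0.23, limma adjusted p = 8.27e-07). Zeb2, a zinc finger factor needed for late NK maturation, was under 1 in every ILC1 library and at 24.3 to 27.0 in NK cells. The genes of mature circulating cells with the largest differences were Cma1 (-7.43) and Itgam, the CD11b chain (-6.80). In both genes ILC1 replicate 3 held the highest ILC1 value, with Itgam at 0.573, 0.821 and 2.56 across the ILC1 libraries and 120 to 147 in NK cells. Klrg1, an inhibitory receptor of mature NK cells, differed by -4.77, the fractalkine receptor Cx3cr1 by -3.94 and Ly6c2 by -3.51. Klf2, which drives expression of egress receptors, was lower by a factor of 9.84 and S1pr1 was at 0.198 to 0.621 in ILC1 against 6.01 to 7.93 in NK cells. Irf8 (-1.78) and Itga4 (-1.91) were lower by smaller amounts, and Emb, a cell surface glycoprotein, was not called at -0.73 (limma adjusted p = 0.00115).

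Most genes that all group 1 cells use differed by less than 2-fold. Of 13 shared group 1 genes 2 were called higher and 1 lower, shares not below the 6.73% and 5.56% of all tested genes. The median was -0.05. Tbx21, which encodes T-bet, was at 134, 99.8 and 105 median-scaled RPKM in ILC1 and at 160, 193 and 166 in NK cells. The groups did not overlap, but the log2 difference of -0.62 (SE 0.13, limma adjusted p = 0.00524) was under 2-fold. Txk, a TEC family kinase, differed by 0.09 (SE 0.08, limma adjusted p = 0.421), Fcer1g, an ITAM adaptor, by -0.05 (SE 0.12, limma adjusted p = 0.754) and Nfil3, a factor needed for NK development, by -0.18 (SE 0.11, limma adjusted p = 0.229). Cd7, an immunoglobulin superfamily receptor, stood out at 1049, 879 and 1036 in ILC1 against 216, 182 and 189 in NK cells, a log2 difference of 2.34 (SE 0.12, limma adjusted p = 1.59e-06). Klrb1c, which encodes NK1.1 in strains that carry that epitope, was lower by 1.14 log2 units, with 73.8 to 92.9 in ILC1 and 176 to 185 in NK cells.

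**Figure D2:**
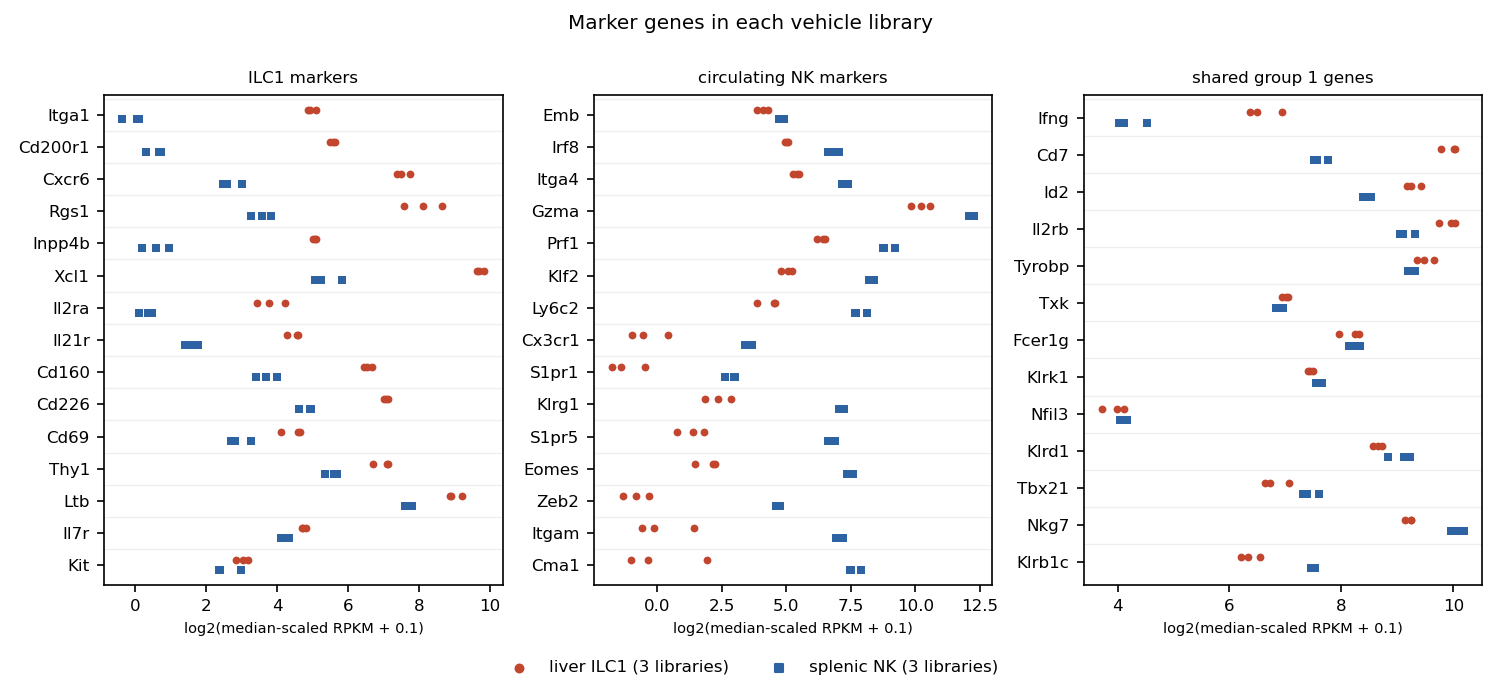
Levels of ILC1 markers, circulating NK markers and shared group 1 genes in the 3 liver ILC1 libraries (circles) and the 3 splenic NK libraries (squares), as log2(median-scaled RPKM + 0.1) on the x axis. Genes are ordered by their difference within each panel; most ILC1 markers lie higher in ILC1, such as Itga1 by 5.04, most circulating NK markers lower, such as Eomes by 5.50, and most shared genes lie close together.

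Among transcription factors, 8 of 35 tested lineage factors were called higher and 11 lower, with a median of -0.34. Hic1, a zinc finger repressor found in gut-resident lymphocytes, was at 22.9, 14.4 and 19.5 median-scaled RPKM in ILC1 and at 1.45, 1.09 and 1.28 in NK cells, higher by 3.77 (SE 0.18, limma adjusted p = 1.44e-06). Ahr, the aryl hydrocarbon receptor, was at 12.2 to 12.4 in ILC1 and 1.48 to 1.81 in NK cells, with a difference of 2.80. Id3, Bcl11b and Maf followed at 2.34, 2.32 and 2.15, and Tox, needed for ILC development, at 1.68. Prdm1, which encodes Blimp-1, was lower in ILC1, at 5.16, 5.33 and 5.44 against 27.7, 27.9 and 26.4 (log2 difference -2.34, SE 0.08, limma adjusted p = 2.4e-07). Myb differed by -3.94, Lef1 by -2.94, Bach2 by -1.70, Tcf7, which encodes TCF-1, by -1.41 and Bcl6 by -1.22. Runx3, which partners with T-bet, was under 2-fold lower at -0.66 (limma adjusted p = 0.000883), and Gata3 did not pass the test at 0.12 (limma adjusted p = 0.267).

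Receptors that steer traffic differed in both directions. Of 15 tested chemokine and egress receptors 4 were called higher (Cxcr6, Cxcr3, Gpr34, Ccrl2) and 8 lower, with a median of -1.26. Cxcr3, the receptor for interferon-induced chemokines, was at 176, 123 and 145 median-scaled RPKM in ILC1 and 27.4, 22.6 and 20.2 in NK cells, higher by 2.65 (SE 0.15, limma adjusted p = 3.36e-06). Gpr34, a lysophosphatidylserine receptor, was higher by 4.82. Cxcr4, which retains cells in bone marrow, was at 2.27, 3.39 and 3.19 in ILC1 and at 24.3, 41.0 and 51.5 in NK cells, lower by 3.63 log2 units (SE 0.26, limma adjusted p = 1.16e-05). The NK libraries varied in this gene without reaching the ILC1 range. Cmklr1, the chemerin receptor, differed by -4.81 and Ccr7, the lymph node receptor, by -3.39, while Ccr2 was not called at -0.48 (limma adjusted p = 0.00916). Integrin chains also split, with 5 of 19 adhesion genes called higher and 7 lower and a median of -0.23. Besides Itga1, the higher genes were Itgav (1.98), Itgb3 (1.5), Cd226 and Cd96, and the lower ones were Itgam, the DX5 target Itga2, Itga4, Itgax (-1.28), Spn (-1.24), Itga5 (-1.18) and Itgb1 (-1.02). Itgb1 was not called without ILC1 replicate 2 or without NK replicate 2, at -0.97 in each case. Itgav and Itgb3, whose products pair as a vitronectin receptor, were at 30.2 to 32.4 and 14.4 to 16.4 in ILC1 against 6.97 to 8.84 and 4.57 to 6.06 in NK cells. Of 7 tested genes tied to tissue retention 5 were called higher (Rgs1, Hic1, Ahr, Cd69 and Rgs2) and Prdm1 lower, with a median of 1.51. Rgs2 (1.05) lost its call without scaling and without ILC1 replicate 3 (0.67), NK replicate 2 (1.03) or NK replicate 3 (1.04).

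More granule genes of killing were lower than higher, and most ligands of the TNF family were higher. Of 19 tested cytotoxic granule genes 5 were called lower and 1 higher, against 5.56% and 6.73% of all tested genes, with a median of -0.50. Without scaling, 8 were lower. Prf1, which encodes the pore-forming protein perforin, was at 89.9, 73.7 and 85.9 median-scaled RPKM in ILC1 and at 433, 600 and 438 in NK cells, lower by 2.55 log2 units (SE 0.14, limma adjusted p = 3.19e-06). Gzma, the granzyme with the highest level here, was at 909, 1184 and 1522 in ILC1 and 4438, 4965 and 4365 in NK cells, lower by 1.96 (SE 0.19, limma adjusted p = 6.98e-05). Gzmk was at 22.5 to 26.4 in NK cells and at 0.0341, 0.693 and 1.15 in ILC1. The granzyme genes thus differed in direction, since Gzmc was higher in ILC1, at 15.8, 19.8 and 19.1 against 0.332, 0.472 and 0.943 (4.84, SE 0.29, limma adjusted p = 4.28e-06). Gzmb, whose product cuts caspases in target cells, was at 422, 367 and 567 in ILC1 and at 238, 296 and 255 in NK cells. These groups did not overlap, and the difference of 0.76 (SE 0.16, limma adjusted p = 0.00583) was under 2-fold. Fasl was not called at 0.25 (limma adjusted p = 0.0569).

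Of 9 tested TNF superfamily ligands 7 were called higher and none lower, with a median of 1.61, and 1 of the 7 is the gate gene Tnfsf10. Among genes above 2 RPKM in both cell types, 4 of 6 ligands were called higher. Tnf was at 20.5, 23.0 and 27.0 median-scaled RPKM in ILC1 and at 3.87, 2.08 and 2.87 in NK cells, higher by 2.99 (SE 0.21, limma adjusted p = 8.8e-06). Tnfsf8, the ligand of CD30, was higher by 4.62, Lta, a lymphotoxin chain, by 1.95, Tnfsf14 (LIGHT) by 1.61 and Tnfsf9, the ligand of 4-1BB, by 1.41. Tnfsf12 was not called at -0.74. Among 15 tested effector cytokines and chemokines, 7 were called higher and 2 lower, with a median of 0.92. Some, such as Csf1, Il2 and Ccl1, entered the test through their level in ILC1 alone. Among genes above 2 RPKM in both cell types, 9 of the list were tested. Of these 2 were called higher and 1 lower, with a median of 0.67. Ifng was at 82.4, 90.1 and 122 in ILC1 and at 22.8, 17.3 and 16.3 in NK cells, higher by 2.37 (SE 0.17, limma adjusted p = 1.14e-05). Csf1, the growth factor of macrophages, was at 12.3, 11.04 and 11.2 in ILC1 and at 0.0584 to 0.254 in NK cells. Il2, the T cell growth factor, was at 4.89, 5.47 and 5.43 in ILC1 and 0.0389 to 0.109 in NK cells, and Csf2 (GM-CSF) was higher by 2.82. The chemokine Ccl1 was at 1.803 to 4.12 in ILC1 and was listed at 0 in all 3 NK libraries, so no fold is given. Ccl5, an abundant chemokine RNA of both cell types, was lower in ILC1, at 2176, 1917 and 2204 against 4916, 4792 and 4161 (-1.14, SE 0.14, limma adjusted p = 0.000259). Its call was lost under quantile normalization, at -0.75, and with no filter on low values (limma adjusted p = 0.172).

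Of 7 tested receptors that signal through the common gamma chain, Il2ra and Il21r were called higher and none lower, with a median of 0.75. Il2rb, the chain that receives IL-2 and IL-15, was at 1047, 855 and 998 median-scaled RPKM in ILC1 and at 548, 634 and 527 in NK cells, higher by 0.76 (SE 0.12, limma adjusted p = 0.00138) and so not called. Il2rg, the common chain itself, overlapped between the groups at 0.24 (limma adjusted p = 0.0999). Of 17 other cytokine receptors 2 were called higher and 4 lower, against 6.73% and 5.56% of all tested genes, with a median of -0.12. Receptors for IL-12 and IL-18, the cytokines that elicit interferon-gamma, differed by chain. Il12rb1 was at 35.3 to 40.2 in ILC1 and 7.53 to 8.91 in NK cells, higher by 2.18, whereas Il12rb2 was not called at -0.88. Il18r1 and Il18rap were lower by 1.93 and 2.12 log2 units, with Il18rap at 59.5, 64.1 and 66.4 in ILC1 and 278, 260 and 291 in NK cells. Il27ra was higher by 1.69, and Il10ra and Ifngr1 differed by -1.16 and -1.25. None of the 13 tested genes of the TGF-beta signaling list was called in either direction by limma at the 2-fold limit, with 9 at an unadjusted p under 0.05, and 3 upward and 4 downward past the adjusted p at any fold (21.5% and 21.0% of all tested genes). Skap1 (0.81), 1 of the 3 upward, is known as an adaptor of T cell receptor signaling and not as a part of the TGF-beta pathway. Without scaling 2 genes of the list were called lower, and with no filter on low values 1.

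Below the receptors, 2 Janus kinases were lower and several feedback inhibitors higher. Of 20 tested JAK, STAT and feedback genes 5 were called higher (Cish, Socs2, Socs1, Pim2, Ptpn6) and 2 lower (Jak1, Tyk2), with a median of 0.30. Without scaling 3 were higher, and the median was 0.02. Jak1 was at 118, 116 and 142 median-scaled RPKM in ILC1 and at 335, 359 and 332 in NK cells, lower by 1.45 log2 units (SE 0.10, limma adjusted p = 1.05e-05), and Tyk2 differed by -1.21. Jak3 and Jak2 were at higher levels in ILC1 by less than 2-fold (0.75 and 0.97), with Jak2 called at 1.02 without NK replicate 1. Stat5a and Stat5b, which carry the IL-2 and IL-15 signal, each differed by -0.30 (limma adjusted p = 0.0489 and 0.0268). Cish (chr9:107296659-107302784, GRCm38), a STAT5 target whose product inhibits cytokine receptor signaling, was at 43.5, 32.8 and 43.8 in ILC1 and at 1.03, 1.40 and 1.42 in NK cells. The difference was 4.86 (SE 0.16, limma adjusted p = 2.11e-07), a 29.0-fold higher level. Socs2 was at 34.6, 30.3 and 35.7 in ILC1 and 2.93, 2.87 and 2.88 in NK cells, higher by 3.48 (SE 0.09, limma adjusted p = 1.27e-07). Socs1, which inhibits the Janus kinases directly, was higher by 2.25, and the survival kinase Pim2 by 1.23, while Pim1 did not pass the test at -0.05 (limma adjusted p = 0.675). In all 5 of the higher genes the ILC1 range lay wholly above the NK range, as in 650 of the 654 genes called higher.

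**Figure D3:**
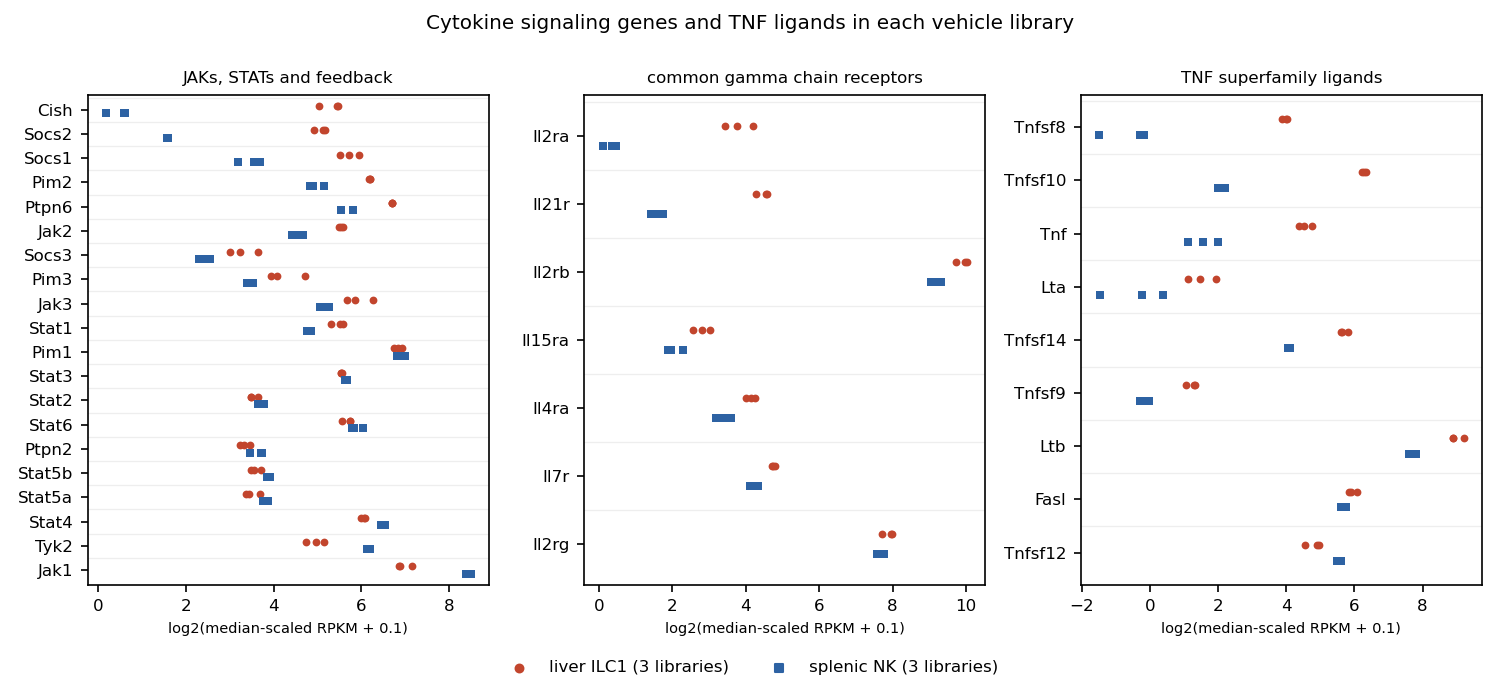
Level of each gene of the JAK, STAT and feedback list, of the common gamma chain receptors and of the TNF superfamily ligands in the 3 liver ILC1 libraries (circles) and 3 splenic NK libraries (squares), as log2(median-scaled RPKM + 0.1) on the x axis. Cish and Socs2 lie furthest apart in the left panel with ILC1 higher by 4.86 and 3.48, Jak1 and Tyk2 with ILC1 lower, and the STAT genes lie close together.

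Because STAT proteins bind the palindrome TTCNNNGAA and T-box factors the core AGGTGT, the promoter windows of RefSeq (build GRCm38.p6, 250 bases before to 50 after the start listed first) were searched for these letters on both strands. A window was found for 7730 of the 9715 tested genes. TTCNNNGAA was present in 7.14% of all these windows, in 7.58% of those of genes called higher and in 6.65% of those called lower. In the JAK, STAT and feedback list 2 of 17 windows held it, in the circulating NK markers 1 of 13 and in the ILC1 markers 2 of 10. Cish, of the JAK, STAT and feedback list and higher in ILC1, had 2 matches. Irf8, of the circulating NK markers and lower in ILC1, also had 2 matches. Both windows are shown with the matches in capitals, Cish at chr9:107296409-107296708 and Irf8 at chr8:120736108-120736407, each on the plus strand.
Cish: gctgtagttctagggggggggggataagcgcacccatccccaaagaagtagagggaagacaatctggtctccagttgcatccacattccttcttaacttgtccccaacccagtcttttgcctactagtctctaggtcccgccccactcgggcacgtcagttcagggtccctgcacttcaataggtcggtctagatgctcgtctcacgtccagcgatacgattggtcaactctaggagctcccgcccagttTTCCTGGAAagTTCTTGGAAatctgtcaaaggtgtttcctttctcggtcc
Irf8: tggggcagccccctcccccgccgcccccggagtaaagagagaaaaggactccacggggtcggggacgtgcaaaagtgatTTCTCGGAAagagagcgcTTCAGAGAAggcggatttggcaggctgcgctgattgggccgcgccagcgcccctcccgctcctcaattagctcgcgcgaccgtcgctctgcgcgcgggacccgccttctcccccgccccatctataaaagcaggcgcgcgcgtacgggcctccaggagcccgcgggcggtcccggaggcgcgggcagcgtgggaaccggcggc
The matches of Cish began at bases 1 and 12 counted from the start and those of Irf8 at bases -171 and -153. The Cish window also held AGGTGT, not overlapping these matches. AGGTGT was present in 10.3% of all windows, in 14.1% of those of genes called higher and in 9.36% of those called lower, in 3 of 13 windows of the circulating NK markers, in 2 of 10 of the ILC1 markers and in 3 of 17 of the JAK, STAT and feedback list. Prf1 and Gzma, both lower in ILC1, are shown with this core in capitals, Prf1 at chr10:61297586-61297885 on the plus strand and Gzma at chr13:113100932-113101231 on the minus strand, where it reads as the reverse complement ACACCT.
Prf1: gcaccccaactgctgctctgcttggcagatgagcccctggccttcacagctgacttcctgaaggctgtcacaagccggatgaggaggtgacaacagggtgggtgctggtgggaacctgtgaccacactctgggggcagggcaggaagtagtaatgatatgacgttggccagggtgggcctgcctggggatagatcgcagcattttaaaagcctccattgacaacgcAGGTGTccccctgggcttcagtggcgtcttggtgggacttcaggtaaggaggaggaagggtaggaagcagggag
Gzma: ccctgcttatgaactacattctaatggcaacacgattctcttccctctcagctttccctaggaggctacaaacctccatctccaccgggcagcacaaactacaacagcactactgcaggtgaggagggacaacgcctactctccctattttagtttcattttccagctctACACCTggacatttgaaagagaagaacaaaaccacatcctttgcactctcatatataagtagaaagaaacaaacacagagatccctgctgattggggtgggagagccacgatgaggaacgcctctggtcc
The core began at base -24 of Prf1 and at base -80 of Gzma. A longer form, AGGTGTGA, was also searched. It was present in 0.815% of all windows, in 0.615% of those called higher and in 0.739% of those called lower. None of the 13 windows of the circulating NK markers held it, Prf1 and Gzma among them. It was in 0 of 10 windows of the ILC1 markers and in 1 of 17 of the JAK, STAT and feedback list. Such matches describe letters in a window and do not show that a factor binds there.

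Receptors for target cells were lower more often than higher, and inhibitory checkpoint receptors the reverse. Of 25 tested NK receptors outside the Ly49 family 2 were called higher (Cd226 and Cd160) and 6 lower, with a median of -0.23. Slamf6, a homophilic receptor, differed by -4.09 and Sh2d1a, the adaptor SAP that it uses, by -4.66, with Sh2d1a at 2.16, 3.01 and 2.46 median-scaled RPKM in ILC1 and at 72.2, 65.5 and 61.3 in NK cells. Fcgr3, the CD16 receptor of antibody-dependent killing, was lower by 1.01, Cd2 by 1.90 and Klri2 by 1.44 log2 units. Fcgr3 lost its call without ILC1 replicate 2 (-0.88), NK replicate 1 (-0.98) or NK replicate 2 (-0.99). Of 11 tested checkpoint receptors 6 were called higher and 2 lower, with a median of 1.31. Lilrb4a was at 55.9, 58.6 and 58.1 in ILC1 and 2.27, 1.18 and 2.39 in NK cells, and Lag3, a receptor for MHC class II, at 37.3, 34.0 and 32.4 in ILC1 and 2.62, 1.46 and 2.83 in NK cells. Pdcd1, which encodes PD-1, was at 6.47, 9.34 and 6.94 in ILC1 and was listed at 0 in all 3 NK libraries. Btla and Lair1 were lower by 3.50 and 3.08 log2 units, and Tigit was not called at 0.91 (limma adjusted p = 0.0159), except without ILC1 replicate 3 (1.13) or NK replicate 1 (1.08).

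The signaling chains behind these receptors changed in both directions, with 6 of 25 called higher, 5 lower and a median of 0.00. Without scaling, 2 were higher and 6 lower. The kinase Syk was at 16.5, 13.5 and 16.7 median-scaled RPKM in ILC1 and at 57.0, 65.7 and 61.2 in NK cells, lower by 1.98 log2 units (SE 0.11, limma adjusted p = 2.41e-06). Its relative Zap70 was higher, at 137, 116 and 111 against 53.5, 53.1 and 46.6 (1.24, SE 0.11, limma adjusted p = 2.91e-05). Plcg1, the phospholipase of T cell receptor signaling, was higher by 3.06 and Cd247, the zeta chain, was lower by 1.56. Cd3g, a chain of the T cell receptor complex, was at 154, 182 and 218 in ILC1 and at 11.9, 9.75 and 10.3 in NK cells, higher by 4.09 (SE 0.14, limma adjusted p = 2.11e-07). Within ILC1 its partner chains were at far lower levels than Cd3g, with Cd3e at 2.096 to 5.33 and Cd3d at 2.34, 7.40 and 3.10. Against NK cells, where it was at 0.0473 to 0.391, Cd3e was called higher in ILC1 (3.74, SE 0.53, limma adjusted p = 0.000591). Cd3d was at 4.57, 3.36 and 3.58 in NK cells and overlapped between the groups.

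Of 6 tested antiapoptotic members of the BCL2 family 2 were called higher (Bcl2a1b and Bcl2a1d) and none lower, with a median of 0.79. Bcl2 was at 61.8, 61.4 and 76.0 median-scaled RPKM in ILC1 and at 40.0, 33.6 and 39.7 in NK cells, higher by 0.81 (SE 0.11, limma adjusted p = 0.000606), and Bcl2l1, which encodes BCL-XL, by 0.77 (SE 0.08, limma adjusted p = 8.38e-05). Both passed the adjusted p and lay under 2-fold. Mcl1, on which NK cells depend, differed by 0.08 (SE 0.11, limma adjusted p = 0.597). Bcl2a1b and Bcl2a1d are near-identical copies that share reads, so their values are uncertain. Of 8 tested proapoptotic members Bik was called higher by 3.33, and Bbc3 (PUMA) and Pmaip1 (NOXA) were lower by 1.64 and 2.64 log2 units. Bbc3 was at 8.90, 6.66 and 7.08 in ILC1 and at 21.8, 22.8 and 26.1 in NK cells.

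Most cell cycle genes were at higher levels in ILC1. Of 21 tested S phase genes 8 were called higher and none lower, with a median of 0.89, and 18 passed the adjusted p upward at any fold, against 21.5% of all tested genes. With a pseudocount of 1, 5 were called, and among genes above 2 RPKM in both cell types 5 of 17 were. Rrm2, a subunit of ribonucleotide reductase, was at 10.04, 9.47 and 8.51 median-scaled RPKM in ILC1 and 1.42, 1.22 and 1.97 in NK cells, higher by 2.55 (SE 0.18, limma adjusted p = 9.55e-06). Of 23 G2 and mitosis genes 13 had enough RNA to be tested. Of these 13, 6 were called higher and none lower, with a median of 1.05. The median was 0.69 without ILC1 replicate 2 and 1.40 with 8 calls without ILC1 replicate 3, and with a pseudocount of 1 there were 4 calls. Among genes above 2 RPKM in both cell types, 2 of 8 were called higher, with a median of 0.76. Mki67, which encodes the proliferation antigen Ki-67, was at 5.71, 6.92 and 6.23 in ILC1 and at 2.34, 1.55 and 2.50 in NK cells, higher by 1.54 (SE 0.19, limma adjusted p = 0.000267), low levels in both. Tyms overlapped between the groups, since ILC1 replicate 2 held 80.3 against 18.5 and 9.69 in the other ILC1 libraries, and it was called at 2.47 without ILC1 replicate 3.

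Immediate early genes, which cells induce rapidly on stimulation, were higher in part. Of 21 tested immediate early genes 9 were called higher and none lower, with a median of 0.95. Among genes above 2 RPKM in both cell types, 4 of 16 were called higher, with a median of 0.64. Fos was at 21.7, 36.2 and 43.5 median-scaled RPKM in ILC1 and at 2.34, 0.889 and 1.36 in NK cells, higher by 4.42 (SE 0.34, limma adjusted p = 1.7e-05), Jun by 3.50, Dusp1 by 3.55 and Junb by 2.82. Junb reached 514, 597 and 827 in ILC1, against 96.4, 92.6 and 81.3 in NK cells. Nr4a1, which reports antigen receptor signals, overlapped between the groups at -0.07 (limma adjusted p = 0.801). Of 13 tested heat shock genes 4 were called higher and 2 lower, with a median of 0.75, and 2 were higher without scaling. In the NF-kB list 1 of 14 was called higher (Tnfaip3 at 1.32, under 2-fold at 0.99 without ILC1 replicate 3) and none lower, with a median of 0.26 that was -0.02 without scaling. That share of higher calls was near the 6.73% of all tested genes. Hspa1b, an inducible HSP70 gene, was at 200, 139 and 85.1 in ILC1 and at 1.13, 2.73 and 2.72 in NK cells. It shares reads with its near-identical neighbor Hspa1a. The endoplasmic reticulum chaperone Hspa5 was higher by 1.14, and Bag3 and Dnajb4, which are also induced by heat, were lower by 1.75 and 1.65 log2 units. Among the ILC1 libraries, Fos, Dusp1 and Junb were highest in replicate 3 and Hspa1b in replicate 1.

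Genes induced by interferons were higher in part. Of 22 tested interferon-stimulated genes 9 were called higher and none lower, with a median of 0.65. Isg15 was at 27.1, 29.7 and 18.3 median-scaled RPKM in ILC1 and at 5.30, 4.57 and 4.32 in NK cells, higher by 2.35 (SE 0.18, limma adjusted p = 1.42e-05), and Oas3 by 2.20. Others of the group, such as Irf7 at -0.09 (limma adjusted p = 0.573), did not pass the test. Of 13 tested GTPases induced by interferon-gamma 7 were called higher and none lower, with a median of 1.02, and 3 were higher without scaling. Igtp was at 43.0, 42.2 and 41.7 in ILC1 and at 16.5, 16.6 and 16.7 in NK cells, higher by 1.34 (SE 0.07, limma adjusted p = 2.4e-06), and Gbp6 by 2.06.

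In metabolism, part of the sterol genes stood above NK levels. Of 19 tested cholesterol synthesis genes 9 were called higher and none lower, with a median of 0.98, and 5 were higher without scaling. With a pseudocount of 1, 6 were called higher. Among genes above 2 RPKM in both cell types, 6 of 16 were called higher, with a median of 0.45. Sqle, the squalene epoxidase, was at 2.89, 2.91 and 3.59 median-scaled RPKM in ILC1 and 0.752, 0.582 and 0.530 in NK cells, higher by 2.17. Srebf2, the controlling factor of the pathway, was higher by 1.19, while Hmgcs1 did not pass the test at -0.01 (limma adjusted p = 0.963). Of 17 tested glycolysis genes Ldhb was called higher and Pfkp lower, shares near the 6.73% and 5.56% of all tested genes. At any fold, 9 of the 17 passed the adjusted p upward and 4 downward, against 21.5% and 21.0% of all tested genes. The median was 0.38, and 0.10 without scaling. Without ILC1 replicate 2, or without NK replicate 2, 3 glycolysis genes were called higher. Ldhb was at 5.78, 7.21 and 7.30 in ILC1 and 0.145, 0.451 and 0.206 in NK cells. Against the 6.73% of all tested genes, 1 of 8 tested amino acid transporters was called higher. This was Slc7a5, the chain that carries large neutral amino acids, which was at 7.79, 6.97 and 8.71 in ILC1 and at 2.995, 3.17 and 2.31 in NK cells, higher by 1.44 (SE 0.15, limma adjusted p = 0.0001).

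**Figure D4:**
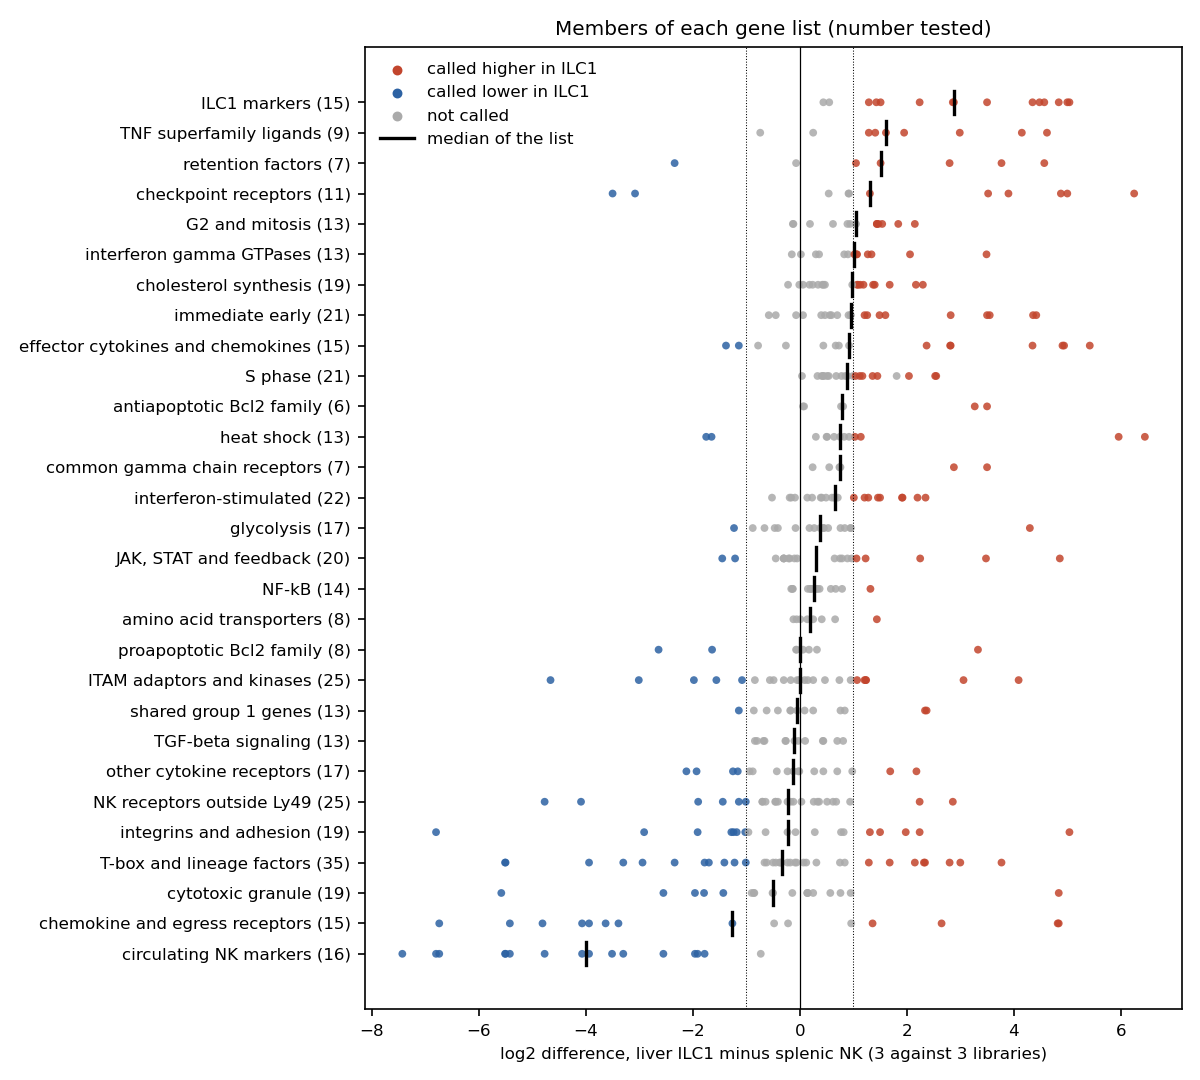
Log2 difference between liver ILC1 and splenic NK cells (x axis) for each tested member of 29 gene lists, with the number tested in brackets. Points are genes, in red where called higher in ILC1, blue where called lower and grey where not called; black bars are list medians, from 2.88 for ILC1 markers to -4.00 for circulating NK markers.

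By size alone, the largest differences included genes outside these lists. Of those with at least 10 median-scaled RPKM in the higher group, Tmem273, a transmembrane protein, was at 27.4, 23.1 and 24.9 in ILC1 and at 0, 0 and 0.13 in NK cells. Its fitted difference of 7.58 depends on the pseudocount. Osgin1, an oxidative stress response gene, was higher by 6.04, Atp8a2, a phospholipid flippase, by 5.57 and Asb2, a SOCS box subunit of a ubiquitin ligase, by 5.12. P2rx7, a channel gated by extracellular ATP, was at 17.7, 17.2 and 19.7 in ILC1 and 0.390, 0.279 and 0.334 in NK cells, higher by 5.40 (SE 0.16, limma adjusted p = 1.5e-07). Art2b, an ADP-ribosyltransferase that modifies the P2X7 protein, was at 23.8, 20.5 and 27.1 in ILC1 and 0.541, 0.322 and 0.294 in NK cells (5.65, SE 0.21, limma adjusted p = 4.26e-07). Art2a-ps, a near-identical copy of it, and Ccdc136 (5.35) were also in this group. In the other direction stood Rhpn1 (-6.60), St5 (-6.23), the protease gene Cym (-6.18), C1ql3 (-6.03), Serpinb9b, a serpin (-6.03), the orphan receptor Gpr25 (-5.97) and the cadherin Cdh22 (-5.58). Serpinb9b was at 0.493, 0.634 and 2.11 in ILC1 and at 66.4, 67.0 and 60.1 in NK cells. Klra23, of the Ly49 family whose copies share reads, fell among them as well and is not read further. Of further genes that the study names, F2rl2 was higher by 2.42, Bspry by 1.17 and Serpina3f by 4.47, and Cd27 was not called at 0.68.

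RNA of other cell types was measured from lists of their markers. Defining hepatocyte genes such as Alb and Apoa1 did not reach the level for testing, and the summed level of 20 hepatocyte markers was 47.6 to 50.3 median-scaled RPKM in ILC1 and 12.8 to 14.2 in NK cells, most of it from Trf at 39.2 to 46.9 in ILC1. Kupffer cell and macrophage markers summed to 3.51 to 11.6 in ILC1 and 8.67 to 11.4 in NK cells. B cell and plasma cell markers summed to 8.92 to 25.2 in ILC1 and 77.7 to 117 in NK cells, and all 9 tested were called lower in ILC1, with Cd79a at 0.351, 5.16 and 1.89 against 26.6, 35.9 and 27.0. Dendritic cell markers, among them MHC class II genes, summed to 24.9 to 49.03 in ILC1 and 160 to 237 in NK cells, with Cd74 at 4.91, 18.6 and 12.2 in ILC1 and 91.8, 135 and 99.3 in NK cells. T cell markers summed to 174 to 240 in ILC1 and 28.6 to 32.9 in NK cells, and Cd3g made up most of the ILC1 sum, while Cd4 was at 2.93 to 3.48 in ILC1 and Cd8a, Cd5 and Cd6 did not reach the level for testing. Erythroid and platelet markers summed to 48.5 to 79.04 in ILC1 and 75.9 to 217 in NK cells, and 4 hemoglobin genes, near-identical copies that share reads, were called lower. Hba-a1 was at 4.38, 5.66 and 0.011 in ILC1 and at 61.4, 23.0 and 14.3 in NK cells. These calls rested on single libraries, since none was left without NK replicate 1 or without NK replicate 2, 1 without ILC1 replicate 1, and 2 without ILC1 replicate 3 or without NK replicate 3. Liver endothelial markers summed to 23.6 to 26.9 in ILC1 and 69.2 to 72.3 in NK cells, where most came from Fcgr2b at 42.2 to 44.3. Biliary and stellate markers summed to 4.08 to 8.17 in ILC1 and 0.81 to 1.1 in NK cells, with Epcam (4.65) as the called member. Neutrophil markers summed to 20.4 to 39.5 in ILC1 and 3.05 to 12.7 in NK cells, with Mmp9 (6.73) as the called member. Markers of ILC2 and ILC3 summed to 2.21 to 4.52 in ILC1 and 0.33 to 0.57 in NK cells, low in both. Of the calls, 7 of the 654 higher and 17 of the 540 lower genes were on these lists, and the part of other cells in the remaining genes was not tested.

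**Figure D5:**
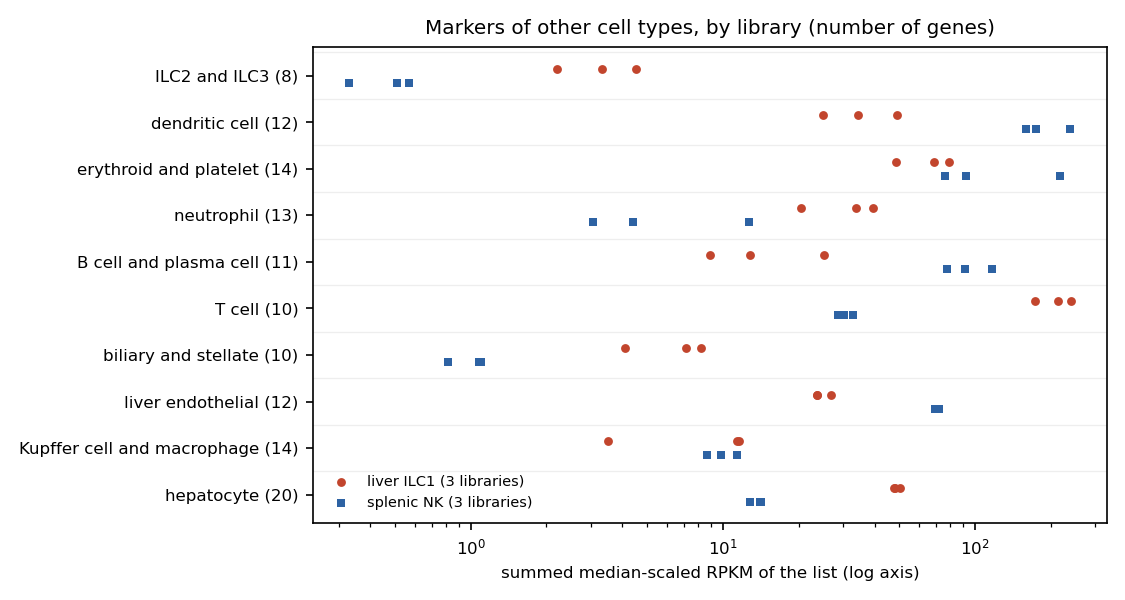
Summed median-scaled RPKM of the markers of each other cell type (log x axis) in the 3 liver ILC1 libraries (circles) and 3 splenic NK libraries (squares), with the number of genes in brackets. B cell markers are lower in all ILC1 libraries (8.92 to 25.2 against 77.7 to 117), and T cell markers are higher through Cd3g.

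The libraries from tofacitinib-treated mice, 2 of each cell type, had not entered this comparison, although they share organs, gates and tables with it. Of the 654 genes called higher in vehicle, 650 had a higher mean in treated ILC1 than in treated NK cells, and in 630 both ILC1 libraries lay above both NK libraries, as in 32.3% of all tested genes. Of the 540 lower genes 536 kept their direction and 530 were fully apart, against 36.0% of all tested genes. Itga1 was at 41.4 and 36.4 median-scaled RPKM in treated ILC1 and at 1.14 and 1.35 in treated NK cells, and Eomes at 3.21 and 5.72 against 165 and 160. Cish was at 13.7 and 7.60 in treated ILC1 and at 0.141 and 0.183 in treated NK cells, so the cell types stayed apart in that gene at levels below those of the vehicle libraries.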

How the data were processed

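RNA of sorted cells had been made into libraries with a NEBNext Ultra II kit and sequenced as 50-base single-end reads. For demultiplexing, the submitters' processing notes name CASAVA 1.8.2 and the methods another tool, bcl2fastq. The authors aligned to mouse build mm10 with TopHat2 2.1.1 and deposited RPKM values from Partek, in 1 table per cell type. RPKM carries no counts, so no count test was run, and the depth is known only as total alignments. Columns with the authors' own group means, ANOVA p-values and ratios were not used.

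The 2 tables were joined on gene symbol. Low RPKM values stepped in whole-number ratios at like rates across tables (13.1 to 33.8% of low genes per pair of libraries) and within them (18.0 to 33.1%), against 1.43 to 2.08% at offsets. The tables were therefore taken to use the same exon lengths. Only genes under 2 RPKM entered this check, so the lengths of genes at higher levels were not checked. The step of 1 read did not follow the alignment totals in every pair of libraries. Each library was scaled to the same median over 8733 genes above 2 RPKM on average in both cell types, and log2(RPKM + 0.1) was fitted with limma 3.58.1 in R 4.3.3 (two-sided moderated test with an intensity trend, Benjamini-Hochberg over 9715 genes whose group mean was above 1 on this scale in at least 1 cell type). Folds on this scale understate the change of low genes. MicroRNA and small nucleolar names (1296) were left out. The fit was tested on simulated data with 200 changed genes.

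Named were the gate genes, genes the study names, the 12 largest differences per direction, all members of the marker lists and up to 6 of each other list, with uncalled members for contrast. Other list members were named after their values were seen. The comparison and the lists were chosen with earlier results of these data known. Zfp683, Trac, Trbc1, Trbc2, Ighm and a few other list members were not analysed here. A few further genes that the naming rule covers count in the lists but are not reported here by name. Same-numbered libraries of the 2 cell types did not deviate together (r -0.263 to -0.017), and the labels tie them to no shared animal or day, so numbers were not used as pairs. Alternatives changed the scaling, pseudocount, filter, samples in the fit, variance model and replicate block, and left out each library in turn.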

Additional observations from a re-analysis of the deposited data

How the results depend on the processing

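The counts of 654 higher and 540 lower genes stayed within 1.5 times under most alternatives. Without scaling, 859 genes were lower and 525 higher (median -0.281). In that fit the prior degrees of freedom were infinite, against 4.47 with scaling, so each gene's own spread did not enter its p and calls gained there are not read as support. Among genes above 2 RPKM in both cell types alone, which leaves fewer genes to test, 381 were higher and 282 lower. With no filter the counts were 900 and 609, with a pseudocount of 1 they were 497 and 437, and without the genes on lists of other cell types 647 and 523. With the replicate number as a block (replicate block), 641 and 538 were called, 640 and 536 of them shared with the unblocked fit, and no gene of the text changed its call. Leaving out a library each time gave 626 to 750 higher and 526 to 573 lower genes.

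Of 185 tested genes in the text, none that was called changed direction in any alternative run. Genes near 0 changed sign without being called: without scaling Fasl (-0.03), Gata3 (-0.16), Il2rg (-0.04), Mcl1 (-0.20), Ncr1 (-0.25) and Txk (-0.19), under quantile normalization Mcl1 (-0.00), Ncr1 (-0.24) and Txk (-0.01), and with a pseudocount of 1 Cd3d (0.02). Without a library each time, the differences ranged for Cd3d from -0.48 to 0.32, Fcer1g from -0.12 to 0.06, Hmgcs1 from -0.09 to 0.11, Mcl1 from -0.04 to 0.13, Ncr1 from -0.02 to 0.05, Nr4a1 from -0.33 to 0.09 and Pim1 from -0.10 to 0.00. Bspry, Hspa5, Pim2, Ptpn6, Srebf2 and Zap70 lost their calls without scaling, Lta, Tnfaip3, Rgs2 and Hba-a1 lost theirs with no filter and with each gene's own variance, Ccl5 with no filter and under quantile normalization, Rgs2 also without scaling, Rgs2 and Hba-a1 with all 10 libraries in the fit, and Bcl6, Fcgr3 and Tnfsf9 fell under 2-fold with a pseudocount of 1. Without scaling Emb (-1.01), Il12rb2 (-1.16), Tnfsf12 (-1.02) and Tyms (1.53, with overlapping groups) gained a call, Tyms also with array weights and among genes above 2 RPKM in both (1.81 in each).

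RPKM carries no counts, so no counting error is given. NK replicate 3 was sequenced to 29199973 alignments, and ILC1 replicate 2 held 13025 genes between 0 and 1 RPKM, against 5844 to 10490 in the other 5 libraries.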
